A study of Mus musculus with 31 samples.

Results

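The genes described here encode the 5 dopamine receptors, *Drd1*, *Drd2*, *Drd3*, *Drd4* and *Drd5*, and DARPP-32, the phosphoprotein encoded by *Ppp1r1b*. They were chosen by name, as 6 of the 52636 genes in a table of expression values from the mouse caudate putamen (CPu), the dorsal part of the striatum. Each value is in TPM, a transcript level scaled to the length of the gene and to a fixed sum per mouse, so that levels of different genes can be set side by side.

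Punches of the right CPu were taken from 31 female mice of the C57BL/6NTac-Brd1 strain, 8 to 11 weeks of age. There were 8 wild-type (WT) mice administered vehicle (saline), 7 *Brd1*+/- mice administered vehicle, 8 WT mice administered imipramine (IMN), a tricyclic antidepressant, at 10 mg/kg, and 8 *Brd1*+/- mice administered the same dose of IMN. *Brd1*+/- mice are heterozygous for a targeted deletion within *Brd1*, and *Brd1* encodes a bromodomain protein that acts with histone acetyltransferases. All mice, those given vehicle included, had been injected subcutaneously on each of 2 days and had been through a tail suspension test, an open field and a forced swim test before the brains were taken.

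Dopamine from midbrain axons acts on the projection neurons of the striatum. Direct pathway neurons carry the D1 receptor, which couples through the G protein subunit encoded by *Gnal* to adenylyl cyclase and raises cAMP, and indirect pathway neurons carry the D2 receptor, which couples to inhibitory G proteins and lowers it. DARPP-32 is abundant in both, and once protein kinase A phosphorylates it on a threonine near its N terminus it inhibits protein phosphatase 1. *Drd3* and *Drd4* encode receptors of the D2 class and *Drd5* one of the D1 class. *Drd3* is known for its expression in the ventral striatum, and *Drd5* is found in striatal interneurons and cortex.

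On GRCm38, *Drd1* lies at chr13:54051183-54055705 on the reverse strand. The other genes lie on the forward strand: *Drd2* at chr9:49340627-49408177, *Drd3* at chr16:43754026-43822932, *Drd4* at chr7:141292006-141296464, *Drd5* at chr5:38319367-38322518 and *Ppp1r1b* at chr11:98348404-98357796. All 6 are annotated as protein coding in GENCODE M21. As a description, with no link to the levels tested, the start regions of *Drd1* and *Drd2* are shown first, from RefSeq on GRCm38.p6 and in the sense of the gene. Each runs from 250 bases before an annotated transcript start to 50 bases after it, at chr13:54055609-54055908 on the reverse strand for *Drd1* and at chr9:49340153-49340452 on the forward strand for *Drd2*. Capitals mark the GC box GGGCGG or its reverse complement CCGCCC.
Drd1: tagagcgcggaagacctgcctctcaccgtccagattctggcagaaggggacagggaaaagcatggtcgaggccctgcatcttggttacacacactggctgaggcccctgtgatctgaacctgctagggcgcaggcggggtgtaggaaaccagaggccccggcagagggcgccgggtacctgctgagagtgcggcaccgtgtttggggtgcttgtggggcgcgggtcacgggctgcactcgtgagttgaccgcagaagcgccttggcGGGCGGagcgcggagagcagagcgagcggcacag
Drd2: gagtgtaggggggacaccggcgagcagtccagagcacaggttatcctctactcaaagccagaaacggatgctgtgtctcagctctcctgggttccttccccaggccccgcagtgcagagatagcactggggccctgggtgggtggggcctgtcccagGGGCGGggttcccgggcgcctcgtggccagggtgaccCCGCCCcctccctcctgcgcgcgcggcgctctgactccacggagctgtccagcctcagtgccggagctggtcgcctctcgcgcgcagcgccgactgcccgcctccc

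The *Drd1* window held 1 GC box, which began 17 bases after the start, and the *Drd2* window held 2, which began 93 and 56 bases before it. A GC box on either strand was found in 35.7% of all 32851 such windows. The table held 6 windows for 5 of the genes and none for *Ppp1r1b*. A second *Drd1* start also had 1 GC box, the window of *Drd4* had 3 (2 of them overlapping), that of *Drd5* had 2 and that of *Drd3* had none. The TATA box TATAAA, present on either strand in 13.6% of all windows, and TGACG, the core of the cAMP response element, present in 20.8%, were not among the letters of any of the 6 windows.

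For *Ppp1r1b*, the beginning of the coding sequence is shown because it holds the residue through which DARPP-32 acts as an inhibitor of protein phosphatase 1. The coding sequence of its GENCODE M21 transcript was 585 bases long, with 194 codons before the stop. The first 120 bases follow, and capitals mark the codons of the protein kinase A site, of which the last encodes threonine 34.
Ppp1r1b: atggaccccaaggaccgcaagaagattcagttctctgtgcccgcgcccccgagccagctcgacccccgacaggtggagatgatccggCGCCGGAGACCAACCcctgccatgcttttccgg

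*Brd1* itself followed the labels. Under vehicle its level was 22.5 ± 2.97 TPM in the WT group (SD, n = 8) and 13.4 ± 2.02 TPM in the *Brd1*+/- group (SD, n = 7). Under IMN it was 19.9 ± 2.67 TPM in the WT and 12.8 ± 1.04 TPM in the *Brd1*+/- group (SD, n = 8 each). Within each treatment, the lowest WT mouse was above the highest *Brd1*+/- mouse. The punches differed in composition. The summed level of 9 markers of striatal projection neurons ranged from 275 to 6921 TPM among vehicle administered WT mice, from 5515 to 6745 TPM among vehicle administered *Brd1*+/- mice, from 3148 to 6549 TPM among IMN administered WT mice and from 4701 to 6639 TPM among IMN administered *Brd1*+/- mice. The summed level of 10 markers of cortical excitatory neurons ranged from 12.1 to 1881 TPM, 19.1 to 228.7 TPM, 11.0 to 1067 TPM and 14.6 to 371.7 TPM in the same order. Vehicle administered WT mouse 2 had the least of the striatal markers, and mouse 7 of that group, labelled female, had a summed level of Y-linked transcripts of 26.8 TPM, where no other mouse exceeded 0.188 TPM. In comparisons with the WT vehicle group, the calls of the reported limma fits are given with and without these 2 mice. Calls of other models and scalings are mostly given with them only. Leaving out the 2 mice did not remove the punches with high cortical markers. The summed cortical level was 1881, 902, 1488 and 1745 TPM in vehicle administered WT mice 1, 3, 4 and 5, which were kept.

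*Ppp1r1b* was one of the most abundant transcripts of the CPu, *Drd2* and *Drd1* were abundant, and *Drd5*, *Drd3* and *Drd4* were low. By mean TPM, *Ppp1r1b* ranked between 26 and 29 among all genes in the 4 groups. *Drd2* ranked between 243 and 904, *Drd1* between 472 and 1419 and *Drd5* between 13810 and 14684. The order *Ppp1r1b* over *Drd2* held in all 31 mice, *Drd2* over *Drd1* in 30 of 31, *Drd1* over *Drd5* in 31 of 31 and *Drd5* over *Drd3* in 28 of 31. The ranges of *Drd1* and *Drd2* overlapped in both WT groups and did not overlap in either *Brd1*+/- group, and those of *Drd3* and *Drd5* overlapped in every group.

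*Drd1* ranged from 1.37 to 180.1 TPM among vehicle administered WT mice, with a median of 88.8 TPM. It ranged from 162.0 to 195 TPM (median 183 TPM) in vehicle administered *Brd1*+/- mice, from 104 to 200.4 TPM (median 157 TPM) in IMN administered WT mice and from 141 to 173 TPM (median 159 TPM) in IMN administered *Brd1*+/- mice. Of the 8 vehicle administered WT mice, 6 lay below every vehicle administered *Brd1*+/- mouse, while mice 6 and 8, at 173 and 180.1 TPM, lay within the range of vehicle administered *Brd1*+/- mice. The highest mouse was 131 times the lowest among vehicle administered WT mice, 1.20 times among vehicle administered *Brd1*+/- mice, 1.92 times among IMN administered WT mice and 1.22 times among IMN administered *Brd1*+/- mice.

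*Drd2* ranged from 0.748 to 287 TPM (median 99.0 TPM) among vehicle administered WT mice and from 224 to 307 TPM (median 274 TPM) among vehicle administered *Brd1*+/- mice. Under IMN it ranged from 137 to 269 TPM (median 247 TPM) in WT mice and from 186 to 276 TPM (median 219 TPM) in *Brd1*+/- mice. Again 6 vehicle administered WT mice lay below all vehicle administered *Brd1*+/- mice, and the lowest value was that of mouse 2.

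*Ppp1r1b* ranged from 73.8 to 4023 TPM (median 1459 TPM) among vehicle administered WT mice, from 2878 to 3778 TPM (median 3324 TPM) among vehicle administered *Brd1*+/- mice, from 1857 to 3371 TPM (median 2931 TPM) among IMN administered WT mice and from 1974 to 3320 TPM (median 2793 TPM) among IMN administered *Brd1*+/- mice. The coefficient of variation was 76.9% in vehicle administered WT mice and between 9.91% and 17.9% in the other groups. The WT vehicle group held both the lowest and the highest of all 31 mice.

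**Figure D1:**
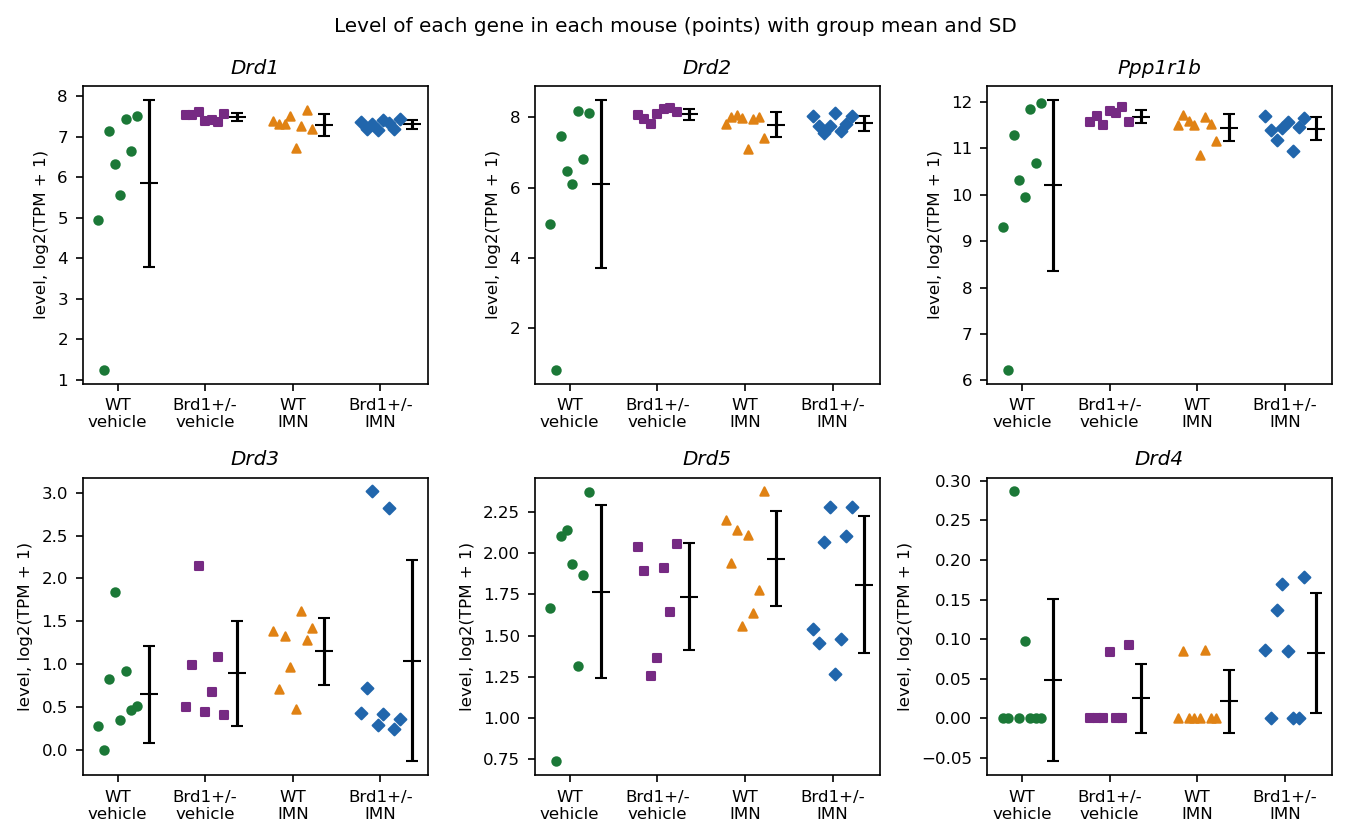
Level of each gene on the log2(TPM + 1) scale (vertical axes, which differ between panels and do not all start at 0) in each mouse of the 4 groups (points), with the group mean and SD (bar at the right of each group). Vehicle administered WT mice spread from 1.37 to 180.1 TPM in *Drd1* and from 0.748 to 287 TPM in *Drd2*, while *Drd3*, *Drd5* and *Drd4* were low in every group.

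The level of *Drd5* under vehicle was 2.59 ± 1.12 TPM in the WT group (SD, n = 8) and 2.40 ± 0.717 TPM in the *Brd1*+/- group (SD, n = 7). Under IMN it was 2.98 ± 0.785 TPM in the WT and 2.63 ± 1.02 TPM in the *Brd1*+/- group (SD, n = 8 each). Its groups overlapped in every pair. *Drd3* ranged from 0 to 2.58 TPM (median 0.401 TPM) in vehicle administered WT mice and from 0.320 to 3.42 TPM (median 0.602 TPM) in vehicle administered *Brd1*+/- mice. Under IMN it ranged from 0.390 to 2.08 TPM (median 1.48 TPM) in WT and from 0.178 to 7.12 TPM (median 0.340 TPM) in *Brd1*+/- mice. IMN administered *Brd1*+/- mice 3 and 6, at 7.12 and 6.10 TPM, lay above all other mice. *Drd4* was listed at 0 in 20 of 31 mice and was at most 0.220 TPM, in vehicle administered WT mouse 3. It did not exceed 0.1 TPM in the 7 mice required for the limma fits. By exact permutation of mean log2(TPM + 1), with n = 7 or 8, its p lay between 0.0872 and 0.677 in the 4 comparisons, and the lowest was that of the genotypes under IMN, where 3 *Brd1*+/- mice lay above all WT mice.

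Whether *Brd1* deficiency changed these transcripts under vehicle was tested first. Vehicle administered *Brd1*+/- mice had mean *Drd1*, *Drd2* and *Ppp1r1b* levels 1.91, 2.1 and 1.78 times those of vehicle administered WT mice, and 0 of the 5 genes tested were nominally significant (p under 0.01), where 13.6% of all 23200 genes tested were, and 1.47% in the positive direction. The positive share was 3.88% after median-of-ratios scaling and 4.56% after quantile normalization, of 9.19% and 9.53% of all genes in either direction. With limma on log2(TPM + 1), *Drd1* differed by 1.64 (standard error 0.71, adjusted p = 0.132). *Drd2* differed by 1.98 (standard error 0.82, adjusted p = 0.120). *Ppp1r1b* differed by 1.48 (standard error 0.64, adjusted p = 0.130). *Drd3* differed by 0.24 (95% interval −0.35 to 0.83) and *Drd5* by −0.03 (95% interval −0.49 to 0.43), with limma adjusted p of 0.576 and 0.939. They differed by 0.11 and −0.19 without WT vehicle mice 2 and 7 (limma adjusted p of 0.852 and 0.557). The sign for *Drd5* turned with median-of-ratios scaling (0.096) and with quantile normalization (0.12). For *Drd3* the difference was 0.67 with a pseudocount of 0.1, and between 0.035 and 0.41 with each mouse left out. The median difference of the 5 genes was 1.48, against −0.13 over all genes tested, which median-of-ratios scaling moved to −0.00077.

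The number of calls differed between tests. An exact permutation test of mean log2(TPM + 1), which treats the mice as exchangeable between groups, gave p = 0.00466 for *Drd1*, p = 0.00746 for *Drd2* and p = 0.0196 for *Ppp1r1b*, unadjusted and two-sided. On this scale the SD was 2.07 in WT and 0.101 in *Brd1*+/- mice for *Drd1*, and 2.40 and 0.157 for *Drd2*. With spreads so unlike, a low p does not measure a shift in level alone. By this exact test 11.3% of all genes had p under 0.01, and 1.39% in the positive direction. Without WT vehicle mice 2 and 7 the same exact test gave p = 0.0175, p = 0.0280 and p = 0.0734 (3.33% of all genes had p under 0.01), and the mean levels were 1.65, 1.77 and 1.51 times those of WT mice. With sample quality weights in limma, all 3 had p under 0.01 (adjusted p between 0.0226 and 0.0354), where 26.5% of all genes had. With all 4 groups in one fit they had as well (adjusted p between 0.0241 and 0.0286), where 19.7% of all genes had. Without WT vehicle mouse 2 the limma differences were 0.98 for *Drd1*, 1.22 for *Drd2* and 0.91 for *Ppp1r1b*, and *Drd2* was nominally significant (adjusted p = 0.0922), where 10.3% of all genes were. Without WT vehicle mice 2 and 7 they were 1.003, 1.21 and 0.90, and 0 of the 5 genes were nominally significant (adjusted p between 0.165 and 0.186 for these 3), where 5.83% of all genes were.

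The composition of the punch moved with this comparison. All 9 striatal markers had positive and all 10 cortical markers negative differences between *Brd1*+/- and WT mice, and 2 of each list were nominally significant by limma, where 1.47% of all genes were in the positive and 12.1% in the negative direction. *Emx1*, one of the cortical markers, was listed at 0 in at least 1 mouse of every group but vehicle administered *Brd1*+/- mice. In bulk tissue, fewer cells of a type and less RNA per cell cannot be told apart. With the cortical marker score (the mean log2(TPM + 1) of the list) as a covariate, the differences were 0.64 for *Drd1*, 0.74 for *Drd2* and 0.48 for *Ppp1r1b* (adjusted p between 0.835 and 0.861). With the striatal marker score as a covariate they were −0.17 for *Drd1*, −0.13 for *Drd2* and −0.15 for *Ppp1r1b* (limma adjusted p between 0.738 and 0.824), with standard errors of 0.18, 0.18 and 0.13. The second model compares each gene with other transcripts of the same neurons, so it asks only whether the gene departed from them.

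**Figure D2:**
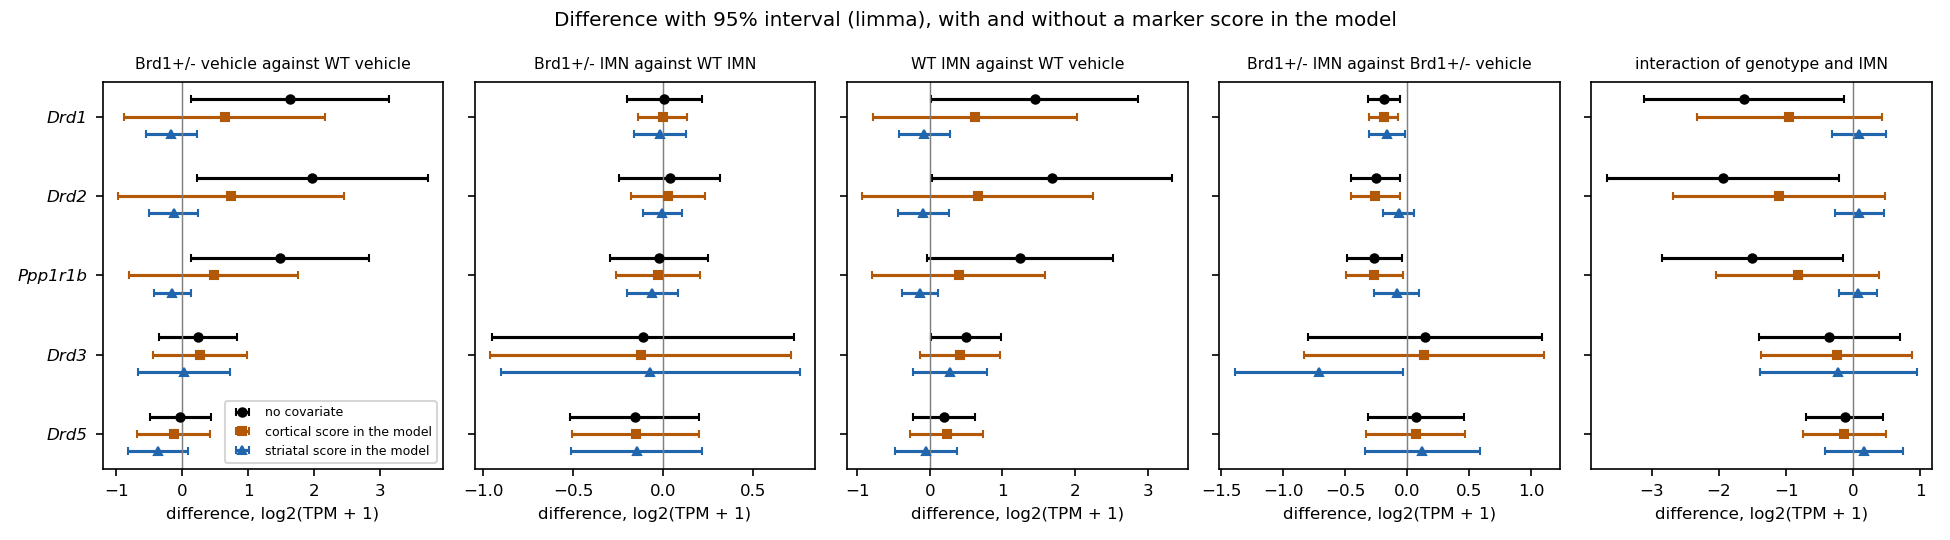
Difference of each gene on the log2(TPM + 1) scale (horizontal axes, which differ between panels) with its 95% interval from limma, for the 4 comparisons and the interaction, with no covariate, with the cortical marker score and with the striatal marker score in the model. The vehicle difference of *Drd2* was 1.98 with no covariate, 0.74 with the cortical score and −0.13 with the striatal score.

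Under IMN the genotypes did not separate. The mean of *Drd1* was 157 ± 12.2 TPM in the *Brd1*+/- and 158 ± 27.8 TPM in the WT group (SD, n = 8 each), and *Drd2* averaged 229 ± 33.2 TPM and 226 ± 47.6 TPM. *Ppp1r1b* averaged 2767 ± 451 TPM and 2818 ± 505 TPM. The limma differences were 0.0077 for *Drd1* (95% interval −0.20 to 0.22), 0.039 for *Drd2* (95% interval −0.24 to 0.32), −0.021 for *Ppp1r1b* (95% interval −0.29 to 0.25), −0.11 for *Drd3* (95% interval −0.95 to 0.73) and −0.16 for *Drd5* (95% interval −0.52 to 0.20). Of the 5 genes, 0 had p under 0.05 and 0 were nominally significant, where 0.703% of 23339 genes were. The intervals of *Drd1*, *Drd2* and *Ppp1r1b* lay within 0.32 on either side of 0, and that of *Drd3* was wider. Over the alternative fits, those leaving out each mouse apart, the difference of *Drd3* lay between −0.60 and −0.071.

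The difference between the genotypes in the effect of IMN was tested directly as an interaction over all 31 mice. It was −1.63 for *Drd1* (standard error 0.73, adjusted p = 0.281), −1.94 for *Drd2* (standard error 0.85, adjusted p = 0.277) and −1.50 for *Ppp1r1b* (standard error 0.66, adjusted p = 0.279) in limma. None of the 5 genes was nominally significant, where 3.74% of 25394 genes were. *Drd1* and *Drd2* passed this threshold without WT vehicle mouse 2 (−0.97 and −1.18, adjusted p = 0.366 for each), where 2.39% of all genes passed. *Drd1* alone passed without mice 2 and 7 (−0.996, adjusted p = 0.483), where 1.62% of all genes passed, and *Ppp1r1b* alone without WT vehicle mouse 8 (−1.76, adjusted p = 0.0960), where 10.2% of all genes passed. With the striatal marker score in the model the signs turned, to 0.086 for *Drd1*, 0.089 for *Drd2* and 0.073 for *Ppp1r1b* (adjusted p of 0.9999 for each).

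The effect of IMN in WT mice used the same vehicle administered WT mice, so it is not independent of the comparison of the genotypes under vehicle. Mean levels were 1.69 times those under vehicle for *Drd1*, 1.75 times for *Drd2*, 1.52 times for *Ppp1r1b* and 1.86 times for *Drd3*, and 5 of the 8 vehicle administered WT mice lay below every IMN administered WT mouse in each of the first 3 genes. In limma, the differences were 1.44 for *Drd1* (standard error 0.67), 1.68 for *Drd2* (standard error 0.78), 1.24 for *Ppp1r1b* (standard error 0.61), 0.50 for *Drd3* (standard error 0.23) and 0.20 for *Drd5* (standard error 0.20). Of the 5 genes 0 were nominally significant, where 6.95% of 23579 genes were, and the adjusted p lay between 0.199 and 0.576. *Drd3* was nominally significant (0.67, adjusted p = 0.206) without WT vehicle mouse 4, which held its highest value in that group, where 4.78% of all genes were. Over the alternative fits, those leaving out each mouse apart, the difference of *Drd3* lay between 0.28 and 1.23. With all 4 groups in one fit, *Drd1* and *Drd2* were nominally significant (adjusted p of 0.0649 and 0.0646), where 13.5% of all genes were. With the striatal marker score as covariate the differences were −0.077, −0.092 and −0.14 for *Drd1*, *Drd2* and *Ppp1r1b*, and those with the cortical score were 0.62, 0.66 and 0.40. Without WT vehicle mice 2 and 7, and with no covariate, they were 0.81, 0.92 and 0.66, with 0.36 for *Drd3* and 0.045 for *Drd5*, and mean levels of the first 3 were 1.46, 1.47 and 1.29 times those under vehicle. Of the 5 genes 0 were then nominally significant, where 2.71% of all genes were.

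In *Brd1*+/- mice, *Drd1* was lower under IMN than under vehicle. It averaged 157 ± 12.2 TPM (SD, n = 8) under IMN and 178 ± 12.4 TPM (SD, n = 7) under vehicle, and 6 of the 8 IMN administered mice lay below every vehicle administered mouse. The limma difference was −0.19 (standard error 0.060), which made it the 1 nominally significant gene of the 5, where 1.83% of 23020 genes were (0.964% in the negative direction), and its adjusted p was 0.516. An exact permutation test gave p = 0.00622, and 1.91% of all genes had p under 0.01 by that test. *Drd2* averaged 229 ± 33.2 TPM against 272 ± 28.8 TPM and differed by −0.25 (standard error 0.092, adjusted p = 0.585 in limma). *Ppp1r1b* averaged 2767 ± 451 TPM against 3295 ± 327 TPM and differed by −0.26 (standard error 0.11, adjusted p = 0.644 in limma). For *Drd2* and *Ppp1r1b*, 5 of 8 IMN administered mice lay below all vehicle administered mice. *Drd3* and *Drd5* differed by 0.14 and 0.072, with limma adjusted p of 0.969 and 0.960. The call of *Drd1* held in 8 of the 15 fits that left out 1 mouse, and it was lost with the striatal marker score in the model (−0.16, adjusted p = 0.664), without the trend in the prior variance, and with all 4 groups in one fit.

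How the genes followed the composition of the punch was examined over all 31 mice with the group as a factor. Per unit of the striatal marker score, *Drd1* rose by 1.06 (standard error 0.050, adjusted p = 3.9e-16 in limma), *Drd2* by 1.26 (standard error 0.045, adjusted p = 3.1e-19) and *Ppp1r1b* by 0.98, all on the log2(TPM + 1) scale. These were 3 of the 5 genes tested, where 22.6% of 25394 genes had p under 0.01 and 5.23% in the positive direction (9.22% after median-of-ratios scaling and 9.47% after quantile normalization). The slopes of *Drd5* (0.18, adjusted p = 0.0650) and *Drd3* (0.082, adjusted p = 0.740) did not pass, but that of *Drd5* was 0.021 without WT vehicle mouse 2 and 0.25 without WT vehicle mouse 6, where it passed (adjusted p = 0.0116), as did 19.2% of all genes. Without the WT vehicle mice the slopes were 0.52 for *Drd1* (adjusted p = 0.0103), 0.96 for *Drd2* (adjusted p = 1.3e-06) and 0.82 for *Ppp1r1b* (adjusted p = 0.000229), in limma over 23 mice. Within single groups the slope of *Drd1* was 1.09 in WT and −0.39 in *Brd1*+/- mice under vehicle, and 0.75 in WT and 0.19 in *Brd1*+/- mice under IMN. That of *Drd2* was between 0.83 and 1.37 and that of *Ppp1r1b* between 0.43 and 0.98 in the 4 groups. Without WT vehicle mouse 2 the slopes were 0.78, 0.98 and 0.83, and the sign of *Drd3* turned (−0.070). Without WT vehicle mice 2 and 7 they were 0.78, 0.98 and 0.83, and −0.065 for *Drd3*.

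Per unit of the cortical marker score, *Drd1* fell by 0.39 (standard error 0.13, adjusted p = 0.0213), *Drd2* by 0.48 (standard error 0.14, adjusted p = 0.0127) and *Ppp1r1b* by 0.39 (standard error 0.11, adjusted p = 0.00893), and 24.2% of all genes had p under 0.01 in limma, 4.26% in the negative direction (9.16% after median-of-ratios scaling and 11.2% after quantile normalization). The slopes of *Drd3* and *Drd5* were −0.064 and 0.0046 (adjusted p of 0.713 and 0.965). Vehicle administered WT mice 6 and 8 were the members of their group with the lowest cortical scores, 0.858 and 0.940, where the other 6 scored between 4.38 and 5.51. Without mouse 6 the slopes were −0.36, −0.43 and −0.35, and without mouse 8 they were −0.35, −0.44 and −0.34. Without either, 0 of the 5 slopes had p under 0.01 (adjusted p between 0.0535 and 0.0986 for *Drd1*, *Drd2* and *Ppp1r1b*), where 19.2% of all genes passed without mouse 6 and 17.8% without mouse 8. Without WT vehicle mice 2 and 7 the slopes were −0.27 for *Drd1*, −0.33 for *Drd2* and −0.28 for *Ppp1r1b*, and without mouse 2 alone they were −0.25, −0.32 and −0.27. Without all WT vehicle mice the slopes were −0.13 for *Drd1* (adjusted p = 0.00331), −0.16 for *Drd2* (adjusted p = 0.0112) and −0.11 for *Ppp1r1b* (adjusted p = 0.167).

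**Figure D3:**
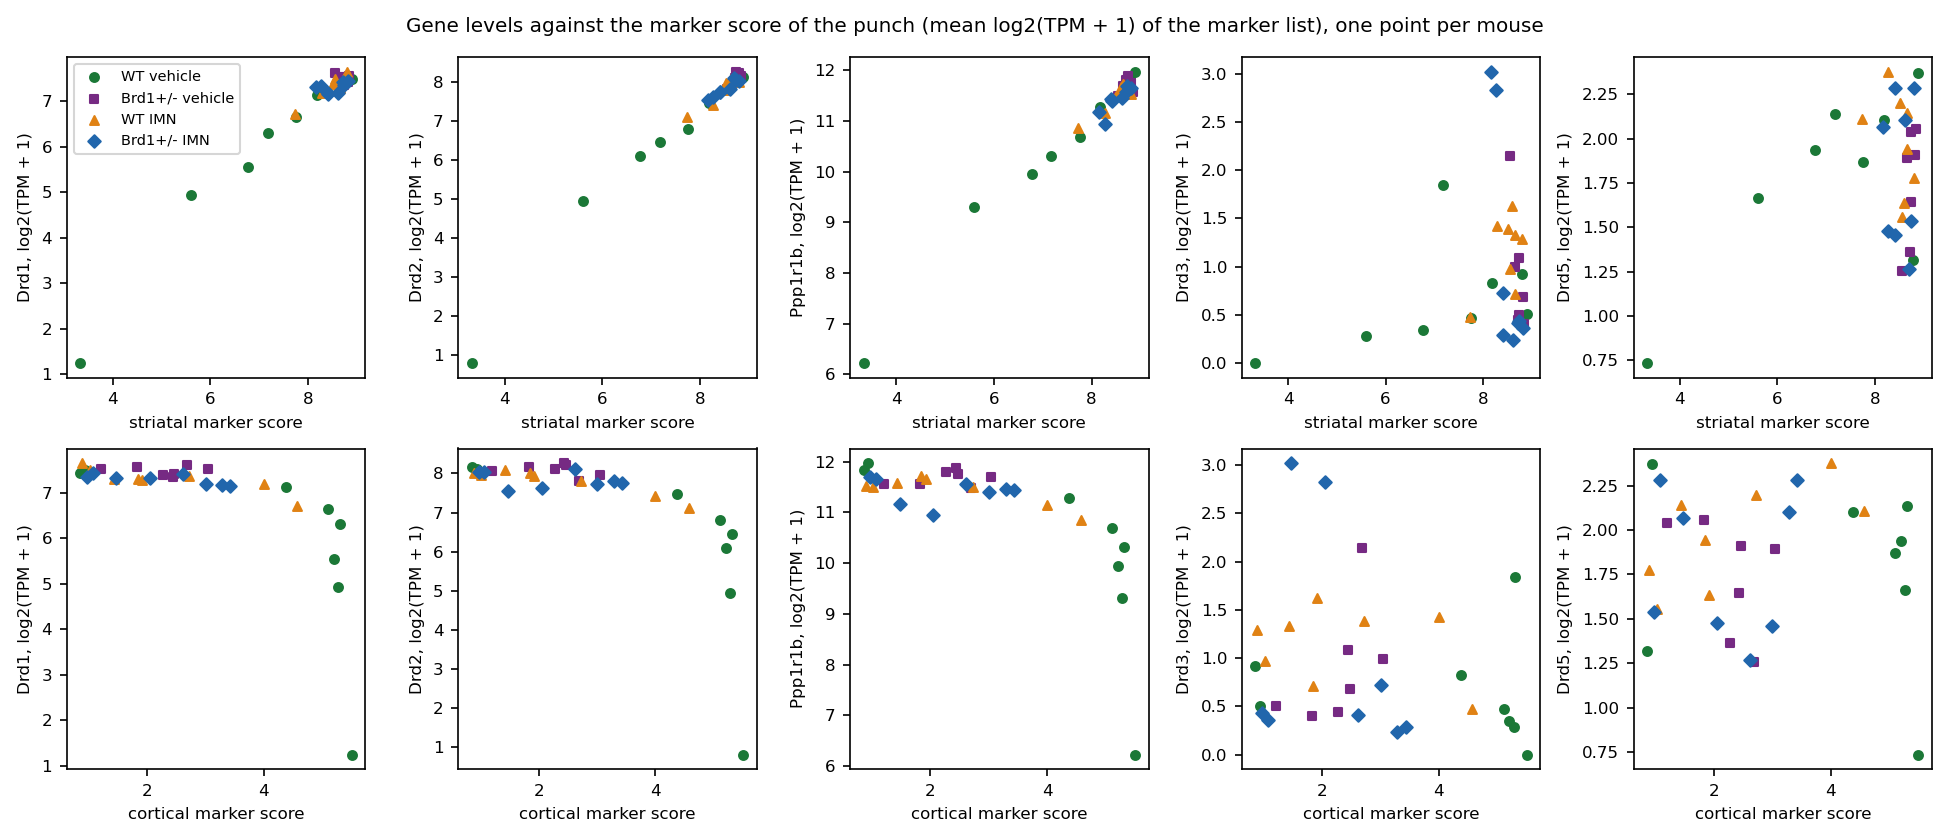
Level of *Drd1*, *Drd2*, *Ppp1r1b*, *Drd3* and *Drd5* on the log2(TPM + 1) scale (vertical axes, which differ between panels) against the striatal marker score (upper row) and the cortical marker score (lower row), with 1 point for each of 31 mice. *Drd1*, *Drd2* and *Ppp1r1b* rose by 1.06, 1.26 and 0.98 per unit of the striatal score, and the WT vehicle mice hold most of its range.

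Ratios of transcripts within a mouse were compared to set these genes against each other rather than against all transcripts. The level of *Drd2* was 1.21 ± 0.355 times that of *Drd1* in WT (SD, n = 8) and 1.54 ± 0.253 times in *Brd1*+/- mice (SD, n = 7) under vehicle. Under IMN it was 1.43 ± 0.192 times in WT and 1.46 ± 0.172 times in *Brd1*+/- mice (SD, n = 8 each). The groups overlapped in every pair. On the log2 scale with a pseudocount of 1, the *Drd1*:*Drd2* ratio differed by −0.34 between the genotypes under vehicle (two-sided exact permutation test, p = 0.0578), by −0.031 under IMN (p = 0.737), by −0.24 with IMN in WT mice (p = 0.130) and by 0.067 with IMN in *Brd1*+/- mice (p = 0.549). The *Ppp1r1b*:*Drd1* ratio differed by −0.15 (exact permutation test, p = 0.314), −0.029 (p = 0.807), −0.20 (p = 0.136) and −0.077 (p = 0.564) in the same order. Adjusted over these 8 tests, the smallest p was 0.361. Without WT vehicle mice 2 and 7 the *Drd1*:*Drd2* ratio differed by −0.20 between the genotypes under vehicle (exact permutation test, p = 0.184) and by −0.11 with IMN in WT mice (p = 0.406), and the *Ppp1r1b*:*Drd1* ratio by −0.10 (p = 0.417) and −0.15 (p = 0.176). The level of *Ppp1r1b* was between 14.7 and 23.3 times that of *Drd1* in vehicle administered *Brd1*+/- mice, and 53.7 times in vehicle administered WT mouse 2, the highest of all.

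**Figure D4:**
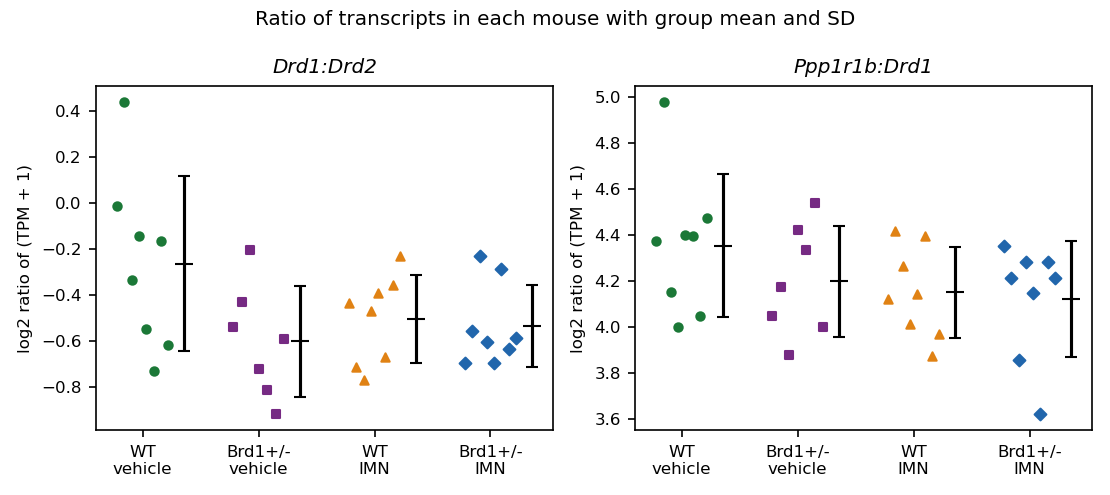
Ratio of *Drd1* to *Drd2* (left) and of *Ppp1r1b* to *Drd1* (right) in each mouse (points), as the log2 of (TPM + 1), with the group mean and SD. The groups overlap in both panels, and vehicle administered WT mouse 2 is the highest point of each.

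Among 17391 genes with a mean of at least 1 TPM, other than the dopamine receptor genes and *Ppp1r1b*, those whose levels were most like a given gene over the 31 mice were named by the Pearson r of log2(TPM + 1), as a description. The mice share their libraries and the punch composition in each pair, and the spread is largely that of the WT vehicle group. For *Drd1* they were *Rgs9* (r = 0.992), *Tac1* (r = 0.987) and *Serpina9* (r = 0.985). *Rgs9* encodes a striatal regulator of G protein signaling, and *Tac1* the precursor of substance P in direct pathway neurons. For *Drd2* they were *Rgs9* (r = 0.994), *Adora2a* (r = 0.994), which encodes an adenosine receptor of indirect pathway neurons, and *Syndig1l* (r = 0.993). For *Ppp1r1b* they were *Syndig1l* (r = 0.992), *Cd4* (r = 0.991) and *Adora2a* (r = 0.991). Over the 23 mice outside the WT vehicle group, r was 0.782 for *Drd1* with *Rgs9*, 0.527 for *Drd1* with *Tac1*, 0.909 for *Drd2* with *Adora2a* and 0.903 for *Ppp1r1b* with *Syndig1l*.

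Among the genes themselves, *Drd2* and *Ppp1r1b* had an r of 0.994 and a Spearman rho of 0.923 over 31 mice, and r was 0.908 over the 23 mice outside the WT vehicle group. *Drd1* and *Drd2* had an r of 0.990 (rho 0.750), and r was 0.691 over the 23 mice. *Drd5* had an r of 0.420 with *Drd1* over 31 mice, which became −0.211 without WT vehicle mice 1 and 2, those farthest from the median striatal score. The nearest gene to *Drd5* was *Orai2*, with an r of 0.626, which was 0.377 over the 23 mice.

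*Drd3* had a pattern of its own. The genes most like it were *Wfs1* (r = 0.912), *P2ry1* (r = 0.907) and *Hap1* (r = 0.892), of which *Wfs1* encodes wolframin, a membrane protein of the endoplasmic reticulum, *P2ry1* a purine receptor and *Hap1* a partner of huntingtin. Over the 23 mice outside the WT vehicle group these were 0.924, 0.916 and 0.891. *Wfs1* was at 156 and 114 TPM in IMN administered *Brd1*+/- mice 3 and 6, against at most 68.8 TPM in any other mouse. *Hap1* was at 139 and 99.1 TPM in these 2 mice, against at most 69.9 TPM elsewhere, and *P2ry1* at 13.8 and 16.6 TPM. The same 2 mice had the lowest *Drd2* and *Ppp1r1b* of their group, at 186 and 195 TPM and at 2310 and 1974 TPM, while their *Drd1* was not the lowest. Where in the CPu each punch was taken is not in the labels, and its part in this pattern was not tested.

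**Figure D5:**
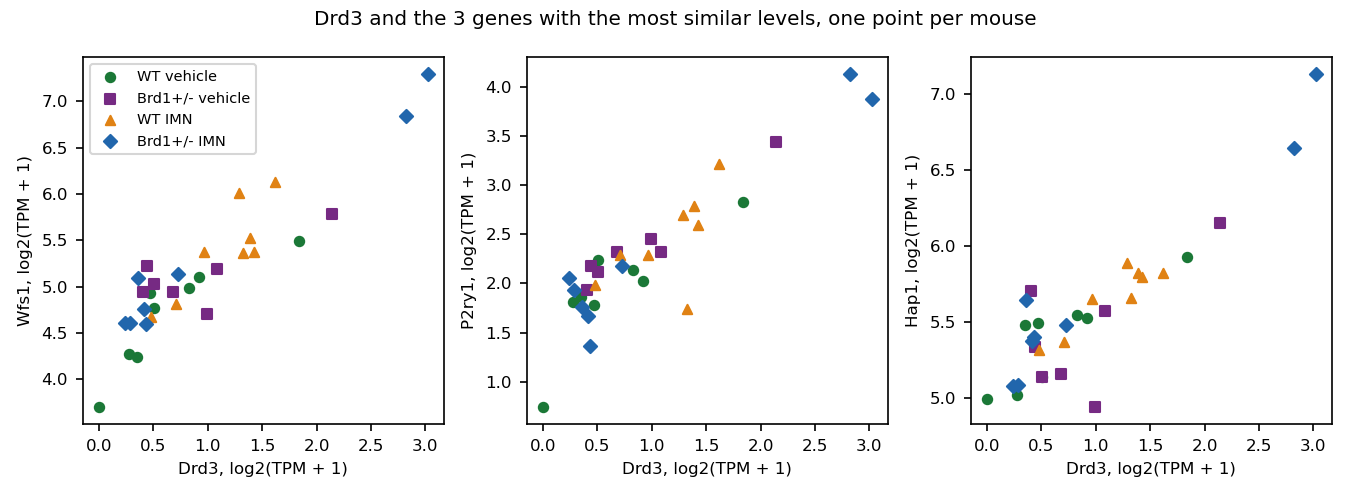
Level of *Wfs1*, *P2ry1* and *Hap1* (vertical axes) against that of *Drd3* (horizontal axes), all on the log2(TPM + 1) scale, which do not start at 0 on the vertical axes, with 1 point for each of 31 mice. IMN administered *Brd1*+/- mice 3 and 6, at 7.12 and 6.10 TPM of *Drd3*, are the points at the far right, and the remaining mice lie along the same direction.

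Further genes of dopamine signaling were described in 4 lists. Of the 13 genes for G proteins, adenylyl cyclase, protein kinase A and phosphodiesterases, 0 were nominally significantly higher and 3 lower in vehicle administered *Brd1*+/- than WT mice, where 13.6% of all genes were called and 1.47% were higher, with a median difference of 0.15 (all genes tested, −0.13). The 3 were *Gnas*, which encodes the Gs alpha subunit, *Prkaca*, a catalytic subunit of protein kinase A, and *Prkar2a*, a regulatory subunit of it. *Gnas* was at 240.3 ± 91.8 TPM (SD, n = 7) against 603 ± 241 TPM (SD, n = 8), a difference of −1.29, *Prkaca* differed by −0.38 and *Prkar2a* by −0.61, with limma adjusted p of 0.0556, 0.0556 and 0.0728. After median-of-ratios scaling 2 of the 13 were higher and 1 lower, where 9.19% of all genes were called. *Gnas* (−1.15) and *Prkaca* (−0.30) were called in this list without WT vehicle mice 2 and 7, where 5.83% of all genes were called, with a limma adjusted p of 0.165 for each.

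Of the 15 genes for kinases and phosphatases that act on DARPP-32 and for its relatives, 3 were higher and 2 lower in the same comparison, with the same 13.6% of all genes called, and the median difference was 0.0036. *Arpp21*, a cAMP-regulated phosphoprotein of striatal neurons, differed by 0.96, its relative *Arpp19* by 0.48 and *Ppp2r5d*, a regulatory subunit of protein phosphatase 2A, by 0.41. *Cdk5*, a kinase that phosphorylates DARPP-32, differed by −0.39 and *Csnk1e*, a casein kinase, by −0.45. Limma adjusted p of these 5 lay between 0.0556 and 0.0686. Of the 13 genes of D2 receptor coupling, *Gnb5*, the beta subunit that binds RGS9, was higher by 0.61, and *Grk2*, *Gnai1* and *Akt1* differed by −0.82, −0.89 and −0.21 (limma adjusted p between 0.0556 and 0.0653). The difference of *Akt1* turned to 0.0021 after quantile normalization. Of the 8 genes for dopamine synthesis, transport and breakdown 7 were tested and 0 were nominally significant. With the striatal marker score as covariate, 1 gene of the 4 lists was higher and 1 lower at p under 0.01, where 1.19% of all genes were. *Cdk5* (−0.36) and *Gnb5* (0.58) were the genes called in these 3 lists without WT vehicle mice 2 and 7, where 5.83% of all genes were (limma adjusted p = 0.165 for each). After median-of-ratios scaling 4 genes of the DARPP-32 list were higher and 0 lower, and 1 gene of D2 coupling was higher and 2 lower, where 9.19% of all genes were called.

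Between the genotypes under IMN, 0 genes of the 4 lists were nominally significant, where 0.703% of all genes were. With IMN in WT mice 4 were, where 6.95% of all genes were: *Gnas*, *Prkaca* and *Gnb1* differed by −0.94, −0.36 and −0.51 and *Gnb5* by 0.49 (limma adjusted p = 0.141 for each). *Prkaca* (−0.29) and *Csnk2a1* (−0.36) were called without WT vehicle mice 2 and 7, where 2.71% of all genes were (limma adjusted p = 0.360 for each). With IMN in *Brd1*+/- mice *Ddc*, which encodes the enzyme that makes dopamine from L-DOPA, was the 1 such gene, where 1.83% of all genes were called, at 7.12 ± 2.29 TPM (SD, n = 8) against 4.23 ± 1.07 TPM (SD, n = 7), a difference of 0.61 with a limma adjusted p of 0.437. In the interaction 5 genes of the lists were nominally significant, where 3.74% of all genes were: *Gnas* (1.42), *Cdk5* (0.33), *Arpp19* (−0.55), *Ppp2r5d* (−0.46) and *Gnb5* (−0.63), with a limma adjusted p of 0.261 for each. *Gnas* (1.28), *Arpp19* (−0.47) and *Gnb5* (−0.59) were called without WT vehicle mice 2 and 7, where 1.62% of all genes were (limma adjusted p = 0.483 for each).

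With the striatal marker score, 7 of the 13 genes of the G protein and cAMP list rose, 1 fell and 5 did not pass p under 0.01, where 22.6% of all genes passed and 5.23% rose. Among them *Pde1b*, a phosphodiesterase, had a slope of 0.77, *Adcy5*, the main adenylyl cyclase of the striatum, of 0.80 and *Gnal* of 0.59, and *Prkaca* had a slope of −0.13. Of the 15 DARPP-32 kinases, phosphatases and relatives 7 rose and 2 fell, with slopes of 0.43 for *Arpp21* and 0.27 for *Ppp1ca*, a catalytic subunit of protein phosphatase 1. Of the 13 genes of D2 coupling 4 rose and 6 fell, with slopes of 1.08 for *Rgs9* and −0.30 for *Grk2*. Of all genes 17.4% fell, and after median-of-ratios scaling 9.22% rose and 9.77% fell. *Th*, which encodes tyrosine hydroxylase, rose by 0.48 per unit of the score and was the 1 gene of its list that did.

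The genes of the 4 lists called between the genotypes under vehicle were set against the cortical marker score, in fits that share the vehicle administered mice. They were chosen by that comparison, and the shares beside them are over all genes, chosen or not. The counts therefore do not test why the genes were called. Of the 8 called lower in *Brd1*+/- mice, 7 rose with the score at p under 0.01 in limma, where 19.9% of all genes rose. Their slopes were 0.33 for *Gnas* (adjusted p = 2.5e-05), 0.088 for *Prkaca*, 0.19 for *Prkar2a*, 0.24 for *Grk2*, 0.24 for *Gnai1*, 0.12 for *Csnk1e* and 0.064 for *Cdk5* (adjusted p = 0.0130). That of *Akt1* was −0.0022 and did not pass. Of the 4 called higher, 3 fell with the score, where 4.26% of all genes fell, with slopes of −0.28 for *Arpp21*, −0.13 for *Ppp2r5d* and −0.12 for *Arpp19*. *Gnb5* had a slope of −0.077 (adjusted p = 0.0519). After median-of-ratios scaling or quantile normalization 6 of the 8 rose and 1 fell, and 4 of the 4 fell. With the cortical marker score as covariate in the comparison under vehicle, 0 genes of the 4 lists were called higher and 2 lower, where 1.88% of all genes were called.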

How the data were processed

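The authors made single-end reads of CPu RNA (BGISEQ-500). Per the labels' processing notes and the study's methods they used FastQC, Trimmomatic, HISAT2 2.1.0, GRCm38 and StringTie 1.3.4, and they deposited TPM per Ensembl gene. TPM summed to between 999787 and 999918 per mouse and holds no read counts. The study's methods give a minimum number of reads per library, not the depth of each, so precision rests on the spread between 7 or 8 mice. The study's test, edgeR, needs counts and was not run.

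Groups came from the labels, each sample being 1 mouse. Each pair of groups was fitted with limma 3.58.1 (R 4.3.3) on log2(TPM + 1), letting the prior variance follow the mean level. Genes entered where 7 or more of its mice exceeded 0.1 TPM, with Benjamini-Hochberg adjustment over all of them and two-sided tests. The pseudocount of 1 understates changes of low genes. The fits were tested on simulated data, in which every group had the SD of IMN administered *Brd1*+/- mice. The wider spread of the WT vehicle group was not simulated, so this does not test comparisons with that group. Nominal significance was p under 0.01, as in the study. Slopes on a marker score had the group as a factor. Single values were tested by exact permutation (scipy 1.17.1).

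The genes and lists were chosen with earlier results of these data known. Named are the 6 genes, up to 3 genes per list, comparison and direction with the smallest p under 0.01 (not all are reported), the 3 genes most like each gene, *Brd1* and markers. Names and positions came from GENCODE M21, promoters from RefSeq. Alternatives were a pseudocount of 0.1, a mean of at least 1 TPM, no filter, median-of-ratios scaling, quantile normalization, a constant prior variance, sample quality weights, a block for the mouse number, a single fit of all groups, marker scores as covariates, subsets of mice and each mouse left out. Leaving out WT vehicle mice 2 and 7 together, in limma and in the permutation tests, was chosen after seeing the data.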

Additional observations from a re-analysis of the deposited data

Results flagged for a closer look

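In 32 groups of values (6 genes and 2 ratios in 4 groups), the highest or lowest mouse was tested for its distance from the rest, and 5 stood apart, where chance gives about 1 in 20. Vehicle administered WT mouse 2 was far below its group in *Drd1* (1.37 TPM), *Drd2* (0.748 TPM) and *Ppp1r1b* (73.8 TPM). Its striatal marker score was 3.33, where the highest of its group was 8.89, and its cortical marker score was 5.51, the highest of the group, and their part in these values was not tested. Vehicle administered *Brd1*+/- mouse 3 was far above its group in *Drd3* (3.42 TPM), and its *Wfs1*, at 54.0 TPM, was also the highest of the group. *Drd4* was highest in vehicle administered WT mouse 3 (0.220 TPM), where 6 of the 8 mice were listed at 0.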

How the results depend on the processing

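The number of the 5 tested genes at p under 0.01 moved with the model. Between the genotypes under vehicle it was 0 in the reported limma fit, 3 with sample quality weights, 3 with all 4 groups in one fit and 2 by exact permutation. For IMN in WT mice it was 0 as reported and 2 with all 4 groups in one fit. For IMN in *Brd1*+/- mice it was 1 as reported, 2 after quantile normalization, 2 with the mouse number as a block, and 0 without the trend, with all 4 groups in one fit or with the striatal score. For the interaction it was 0 as reported, 3 with sample quality weights and 1 without WT vehicle mice 2 and 7. For the cortical slope it was 3 as reported and 0 with the block. Leaving out each mouse gave 0 to 1 genes for the vehicle comparison, 0 to 1 for IMN in WT mice, 0 to 2 for IMN in *Brd1*+/- mice, 0 to 2 for the interaction and 0 to 3 for the cortical slope. The striatal slope count was 3 to 4. With these mice left out in turn the share of all genes lay between 8.89% and 22.4%, 3.88% and 15.3%, 1.34% and 2.18%, 2.16% and 10.2%, 17.8% and 25.4%, and for the striatal slope 17.8% and 28.5%. The share of all genes at p under 0.01 moved too. Under vehicle it was 13.6% as reported, 26.5% with weights, 19.7% in the single fit and 11.3% by exact permutation. For IMN in WT mice it was 6.95% as reported and 13.5% in the single fit. For the interaction it was 3.74% as reported, 13.6% with weights and 1.62% without WT vehicle mice 2 and 7, and for the cortical slope 24.2% as reported and 19.4% with the block. For IMN in *Brd1*+/- mice it lay between 1.17% and 2.15% in the fits named. By exact permutation without WT vehicle mice 2 and 7, a choice made after seeing the data, 0 genes passed under vehicle, against 3.33% of all genes. The causes were not tested.

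With the striatal score as covariate, signs turned under vehicle to −0.17 (*Drd1*), −0.13 (*Drd2*) and −0.15 (*Ppp1r1b*). With IMN in WT mice they turned to −0.077, −0.092, −0.14 and −0.053 (*Drd5*), with IMN in *Brd1*+/- mice to −0.71 (*Drd3*), and in the interaction to 0.086, 0.089, 0.073 and 0.16 (*Drd5*). Differences near 0 also turned. Under vehicle *Drd5* was 0.096 after median-of-ratios scaling, 0.12 after quantile normalization and 0.056 with the block, and *Akt1* was 0.0021 after quantile normalization. The same 0.056 for *Drd5* was obtained with no block when WT vehicle mouse 8 was left out. Between the genotypes under IMN, *Drd1* was −0.039 with weights, −0.0010 with the cortical and −0.018 with the striatal score, *Drd2* was −0.0039 with the striatal score, and *Ppp1r1b* was 0.026 after median-of-ratios scaling. With a pseudocount of 0.1, *Drd3* was −0.041 with IMN in *Brd1*+/- mice, and without WT vehicle mice 2 and 7 the interaction of *Drd5* was 0.027. The cortical slope was 0.058 for *Drd3* with the block, and for *Drd5* it was −0.00039 with a pseudocount of 0.1, −0.028 after median-of-ratios scaling and −0.044 after quantile normalization. The striatal slope of *Drd3* was −0.013 with weights, −0.042 with the block, −0.91 in IMN mice, −1.11 without the WT vehicle mice, −0.36 without the 2 mice farthest from the median score and −0.065 without WT vehicle mice 2 and 7. That of *Drd5* was −0.26, −0.14 and −0.078 in IMN mice, without the WT vehicle mice and without the 2 farthest mice.

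Leaving out each mouse gave, between the genotypes under IMN, −0.074 to 0.060 (*Drd1*), −0.059 to 0.080 (*Drd2*), −0.40 to 0.0017 (*Drd3*) and −0.10 to 0.046 (*Ppp1r1b*). It gave −0.14 to 0.35 (*Drd3*) and −0.0080 to 0.15 (*Drd5*) for IMN in *Brd1*+/- mice, −0.18 to 0.056 for *Drd5* under vehicle, −0.21 to 0.020 for its interaction, −0.038 to 0.062 for its cortical slope and −0.070 to 0.11 for the striatal slope of *Drd3*. The *Drd1*:*Drd2* ratio ran from −0.40 to −0.24 under vehicle and from −0.075 to 0.0085 under IMN, and the *Ppp1r1b*:*Drd1* ratio from −0.21 to −0.065 under vehicle and from −0.068 to 0.043 under IMN. With IMN in WT mice the 2 ratios ran from −0.31 to −0.14 and from −0.25 to −0.11. With IMN in *Brd1*+/- mice they ran from 0.014 to 0.13 and from −0.13 to −0.0054.

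Mouse numbers gave little sign of pairing: deviations of same-numbered mice had median correlations between −0.014 and 0.092 in the 4 comparisons. For IMN in *Brd1*+/- mice, 3 of 7 numbers matched best with their own number. With the mouse number as a replicate block the *Drd1*:*Drd2* ratio under vehicle differed by −0.39 (exact permutation p = 0.0313). The TPM values give no read counts for *Drd3* and *Drd4*, so no counting error is given for these low values.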

Other observations

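Markers of the direct and indirect pathway neurons gave the following levels, on the log2(TPM + 1) scale. *Tac1*, for the direct pathway, was at 7.34 ± 2.07 (SD, n = 8) in vehicle administered WT mice, 8.99 ± 0.198 (SD, n = 7) in vehicle administered *Brd1*+/- mice, 8.89 ± 0.197 (SD, n = 8) in IMN administered WT mice and 8.94 ± 0.148 (SD, n = 8) in IMN administered *Brd1*+/- mice. The mean of *Adora2a*, *Penk* and *Gpr6*, for the indirect pathway, was 6.96 ± 1.86, 8.62 ± 0.116, 8.42 ± 0.360 and 8.47 ± 0.186 in the same order. *Drd1* averaged 5.85 ± 2.07, 7.48 ± 0.101, 7.29 ± 0.273 and 7.30 ± 0.112 on this scale, and *Drd2* 6.11 ± 2.40, 8.08 ± 0.157, 7.79 ± 0.347 and 7.83 ± 0.208. All 4 measures had their lowest mean and widest spread in vehicle administered WT mice.

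The group means of marker lists for other cell types were as follows on the same scale. The mean of 5 microglial markers lay between 4.73 and 4.88 in the 4 groups, that of 5 endothelial markers between 3.92 and 3.95 and that of 5 interneuron markers between 5.53 and 5.65. The interneuron markers went opposite ways between WT and *Brd1*+/- mice under vehicle. *Chat* averaged 7.05 against 13.9 TPM and *Slc5a7* 7.79 against 14.5 TPM. *Sst* averaged 593 against 432 TPM, *Npy* 304 against 209 TPM and *Pvalb* 68.0 against 15.4 TPM. Group means also hide spread between mice, as in oligodendrocyte scores of 7.34 to 10.0 among vehicle administered WT mice. The mean of 5 astrocyte markers lay between 5.18 and 5.46, that of 5 oligodendrocyte markers between 8.05 and 8.54, that of 5 choroid plexus and ependymal markers between 0.676 and 0.836 and that of 5 erythrocyte markers between 4.72 and 5.33.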
